A study of Homo sapiens with 8 samples.

Results

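The genes described here carry citrate into the cytosol and turn it into fatty acids and the first glycerolipid intermediate, together with a regulator of these steps. They are 10 of the 34602 gene rows measured: SLC13A5, SLC25A1, ACLY, ACACA, ACACB, FASN, SCD, ELOVL6, GPAM and SREBF1, and each was found as 1 row under its current symbol. They were chosen by symbol for their place in the pathway, after the differences between siLSD1 and siControl for SLC13A5, ACACB and GPAM had been seen, so those differences are given as a description and nothing is supported with them. Expression was measured on Illumina bead arrays in Huh-1, an established line of human hepatocellular carcinoma cells, to address what depletion of LSD1, the histone demethylase encoded by KDM1A, does to gene expression under hypoxia. By reverse transfection cultures were given siLSD1, which targets LSD1, or control siRNA (the siControl group), and 48 h later all of them, controls included, went into 1% O2 for 24 h. Each group had 2 biological replicates with 2 technical arrays each, 8 arrays from 4 biological samples. The labels do not say whether the replicates were cultured or transfected on separate days, so the spread between them may be partly technical. All values are from hypoxic cells of 1 line, and the labels do not name the siRNA sequences.

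De novo fatty acid synthesis starts from citrate. Citrate leaves the mitochondrion through SLC25A1, or enters from outside the cell through SLC13A5, and ACLY splits it into acetyl-CoA and oxaloacetate. The acetyl-CoA carboxylases ACACA and ACACB make malonyl-CoA, FASN builds palmitate from it, ELOVL6 and SCD lengthen and desaturate the product, and GPAM attaches an acyl chain to glycerol 3-phosphate. SREBF1 encodes SREBP-1, a transcription factor known to activate most of these genes in liver. Liver tumours are known for high activity of this pathway.

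Between 12447 and 13290 rows were detected per array at a detection p under 0.01, with a median linear signal of 167.9 to 179.9. The RNA is bulk, so a change in all cells and a change in some of them cannot be told apart. KDM1A, the target of the siRNA, had a log2 normalized signal of 11.79 and 12.14 in the siControl replicates and 10.52 and 10.44 in the siLSD1 replicates, a log2 difference of -1.48 ± 0.18 (the error after ± is the standard error of limma's fit here and below, unless named SD, with n = 2 biological samples in each group). The siControl replicates stood apart from each other, with an SD of their log2 difference over genes of 0.50 against 0.18 for the siLSD1 replicates. Across the tested rows, arrays of siControl replicate 2 correlated with siLSD1 arrays at r = 0.982 to 0.985. With arrays of siControl replicate 1 they correlated at only r = 0.969. Arrays of siControl replicate 1 correlated with siLSD1 arrays at r = 0.967 to 0.968. Differences of the 10 genes are therefore also given against each siControl replicate. Those of related genes are given so where the replicates give different directions or very different sizes. Among markers of the labelled cell type, 9 of 10 hepatocyte lineage genes were tested. Albumin (ALB) was bright in all samples, with a log2 difference of 0.04 ± 0.15. The transcription factor HNF4A was dim and was detected on 2 of 4 siControl arrays and 3 of 4 siLSD1 arrays. HNF4A had a log2 difference of -0.00 ± 0.20, at 0.23 and -0.24 against siControl replicates 1 and 2. The apolipoprotein gene APOH stood at 11.42 and 11.76 in siControl and at 13.00 and 12.86 in siLSD1, a log2 difference of 1.33 ± 0.18. With the technical arrays averaged it was not called (limma, adjusted p = 0.223). With the technical arrays modelled it was called (limma, adjusted p = 0.00234), as were 2.91% of the 12870 rows tested. The fibrinogen chain FGB stood at 0.78 ± 0.39, at 0.20 over siControl replicate 1 and 1.37 over replicate 2. At the low end AFP stood at -0.30 ± 0.29 and TTR at -0.06 ± 0.45, each with opposite directions against the siControl replicates (-0.72 and 0.12 for AFP, 0.64 and -0.75 for TTR). APOA1, at 12.83 and 14.22, and APOB, at 12.40 and 13.46, also differed between the siControl replicates. The part of the hepatocyte genes in the results below was not tested. Of 15 markers of leukocytes, endothelium, stroma and adipocytes 3 were tested, and their log2 differences ran from -0.28 to 0.02.

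The estimates of the 10 genes in siLSD1 went in both directions. This is a description only, since those of SLC13A5, ACACB and GPAM were known when the genes were chosen. SLC13A5, GPAM (log2 difference 0.76 ± 0.17), ACACA (0.49 ± 0.12) and SREBF1 (0.29 ± 0.11) were higher in both siLSD1 samples than in both siControl samples. For SLC13A5 the log2 difference was 1.29 from the siControl sample in which the row was detected; the fit over both gave 1.93 ± 0.42, which is not a measured size, since the other siControl sample was not above background. ACACB (-1.29 ± 0.16), ACLY (-0.34 ± 0.15) and SLC25A1 (-0.33 ± 0.16) were lower in both siLSD1 samples than in both siControl samples. FASN, SCD and ELOVL6 overlapped between the groups. The same 7 genes, 7 of 10, were separated at the level of the 8 arrays.

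**Figure D1:**
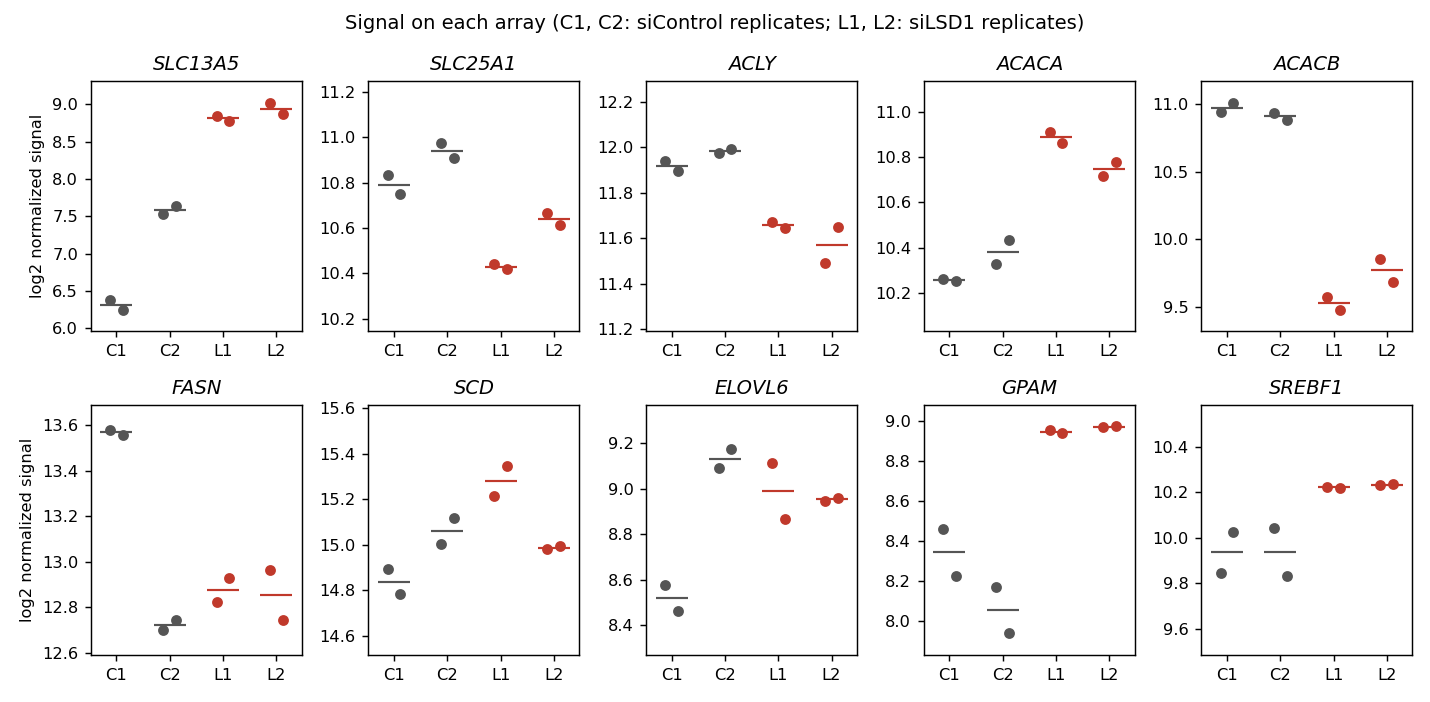
Log2 normalized signal of the 10 genes on each of the 8 arrays (y axis, on a scale of its own for each gene), by biological sample (x axis; C1 and C2 are the siControl replicates, L1 and L2 the siLSD1 replicates). Points are arrays and short lines are the mean of the 2 arrays of a sample; FASN, SCD and ELOVL6 overlap between the groups and the other 7 genes do not.

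No gene passed the test over all rows. Limma called 0 of 12870 rows (0%) at an adjusted p of 0.05, and of the 8 members in that fit adjusted p ran from 0.223 to 0.865, with 1515 rows at an unadjusted p under 0.05. An exact two-sided permutation test of 2 samples against 2 cannot go below a p of 0.333. ACACA and SREBF1 had detection p-values of 0.0849 to 0.158 and 0.0291 to 0.158, although both were brighter than every ERCC control row (the spike-in rows, at most 228) on all 8 arrays. They are therefore outside the detection filter and their values come from the fit with no filter. In a fit to the 16049 rows that exceeded all ERCC rows on 4 or more arrays, which held all 10 genes, 0 rows passed as well (0%), with adjusted p = 0.345 for ACACA and adjusted p = 0.504 for SREBF1. The 7 non-overlapping genes of 10 are to be read beside 42.7% of those 16049 rows that did not overlap between the samples in either direction, and beside 23.5% that did not overlap between the arrays. SLC13A5, GPAM and ACACB were beyond 1.5-fold, 3 of 10, where 7.65% of the rows were. Because the contrast was known when the genes were chosen, nothing is read from these shares. The median log2 difference was 0.17 over the 10 genes and 0.01 over the 16049 rows. Over the 8 members inside the detection filter it was -0.07, with 4 higher and 4 lower, against 0.01 over the 12870 rows. Its sign thus depended on ACACA and SREBF1. With the technical arrays modelled instead of averaged, 2.91% of the 12870 rows were called, and 2 of the 8 members in the fit, SLC13A5 (adjusted p = 0.00693, with the siControl sample in which it was not detected included) and ACACB (adjusted p = 0.00324). In that fit with no filter ACACA had an adjusted p of 0.0269. GPAM missed the threshold there (adjusted p = 0.0592).

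SLC13A5, the plasma membrane citrate transporter that couples citrate uptake to sodium, was higher in siLSD1 than in both siControl samples. Its non-normalized signals were 121.3 and 112.3 on the arrays of siControl replicate 1, 230.6 and 242.4 on those of siControl replicate 2, 538.4 and 485.6 on those of siLSD1 replicate 1, and 535.5 and 480.6 on those of siLSD1 replicate 2. All 4 siLSD1 arrays were above all 4 siControl arrays, and the row was not detected in siControl replicate 1, where its detection p was 0.745 and 0.853. In siControl the mean log2 signal was 6.95 ± 0.90 (SD, n = 2), and in siLSD1 it reached 8.88 ± 0.09 (SD, n = 2). Against siControl replicate 2, where the gene was detected on both arrays, the difference was 1.29, a 2.45-fold higher level in siLSD1. Under this processing the value is close in size to the ACACB difference below, in the other direction. The SLC13A5 row was dim in replicate 2, and the offset of the background correction understates folds of dim rows. The difference from replicate 2 alone is given under this processing only, so nothing is read from the likeness in size. The difference from replicate 1 has no measured size, since the row was not detected in that sample. After neqc, another background correction, the SLC13A5 difference over both controls was 0.18.

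The 4 other transporters of the SLC13 family, SLC13A1 to SLC13A4, were detected on none of the 8 arrays. The 3 rows outside the pathway most like SLC13A5 were found, by the Euclidean distance between log2 values over the 4 biological samples, each row centred on its own mean, with the SLC13A5 value of siControl replicate 1 at background. They were PDGFB, a platelet-derived growth factor chain, at a distance of 0.15, the stress-response gene IER3 at 0.27, and LOC389160, whose row has no match in the gene table, at 0.35. PDGFB stood lower in siControl replicate 1 than in replicate 2, with differences of siLSD1 from them of 2.54 and 1.36. Its selection by likeness entails this pattern. PDGFB was detected on 2 of 4 siControl arrays, and LOC389160 was not detected in siControl replicate 1 (detection p of 0.262 and 0.295).

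SLC25A1, the mitochondrial carrier that exports citrate in exchange for malate, was slightly lower in siLSD1. Its log2 signals were 10.79 and 10.94 in siControl and 10.43 and 10.64 in siLSD1. The groups did not overlap, and siLSD1 stood at -0.26 and -0.41 relative to the siControl replicates. The difference of -0.33 (limma, adjusted p = 0.51) is to be read beside the spread within the groups. There the siControl replicates differed by 0.15 and the siLSD1 replicates by 0.21.

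ACLY, which releases acetyl-CoA from citrate in the cytosol, was lower to the same degree. It stood at 11.92 and 11.98 in siControl and at 11.66 and 11.57 in siLSD1. Its differences from the siControl replicates, -0.30 and -0.37, lay close together, and each was larger than the difference within either group (0.07 in siControl and -0.09 in siLSD1).

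The acetyl-CoA carboxylases went apart. ACACA, the cytosolic enzyme that supplies malonyl-CoA to FASN, had non-normalized signals of 1328.3, 1277.8, 1369.9 and 1353.4 on siControl arrays 1 to 4 and of 2072.9, 1914.6, 1597.1 and 1662.7 on siLSD1 arrays 1 to 4 (arrays 1 and 2 are replicate 1, arrays 3 and 4 replicate 2, in each group). All siLSD1 arrays were above all siControl arrays. After normalization the difference was 1.41-fold on the means, and 0.56 and 0.43 on the log2 scale over siControl replicates 1 and 2. ACACB, the enzyme at the outer mitochondrial membrane whose malonyl-CoA restrains fatty acid import by CPT1, had 2168.5, 2171.6, 2070.0 and 1810.3 on the siControl arrays and 866.4, 765.1, 907.6 and 807.2 on the siLSD1 arrays. Every siLSD1 array lay below every siControl array, and siControl was 2.45-fold above siLSD1 after normalization. For ACACB, siLSD1 stood at -1.33 relative to siControl replicate 1 and at -1.26 relative to replicate 2, and replicate 2 stood at -0.06 relative to replicate 1, so that both controls gave about the same difference.

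The ACACA level relative to ACACB, set to a mean of 0 in siControl, was -0.09 and 0.09 in the siControl replicates and 1.98 and 1.60 in the siLSD1 replicates, a shift of 1.79 on the log2 scale with an SD of 0.13 in siControl and 0.27 in siLSD1 (n = 2 each). This is a difference of changes; levels of different rows were not set against each other, since their probes differ. The ACACA part of it carries the detection p-values given above. The rows most like ACACB outside the pathway were SLC25A22, a mitochondrial glutamate carrier, and NME3, a nucleoside diphosphate kinase, both at a distance of 0.13, and LOC387882, with no match in the gene table, at 0.17.

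**Figure D2:**
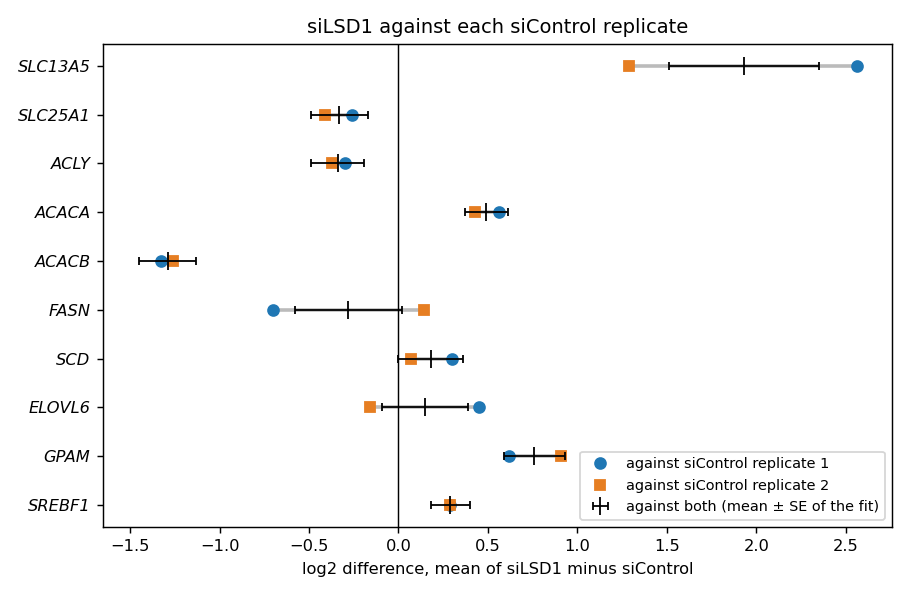
Log2 difference of the siLSD1 mean from siControl replicate 1 (circles), from siControl replicate 2 (squares) and from both (vertical ticks with the standard error of the fit; ACACA and SREBF1 from the fit with no filter) for the 10 genes. FASN and ELOVL6 lie on opposite sides of 0 against the siControl replicates, and ACACB lies at -1.33 and -1.26. The SLC13A5 circle and tick rest on siControl replicate 1, in which the row was not detected.

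FASN, the multi-domain synthase that makes palmitate, could not be given a direction. Its normalized signals on the linear scale were 12250.1 and 12068.4 in siControl replicate 1 and 6661.8 and 6862.2 in siControl replicate 2. The siLSD1 arrays ran from 6854.6 to 7988.8, below replicate 1 and close to replicate 2. The log2 difference was -0.70 from replicate 1 but 0.14 from replicate 2. Replicate 2 itself stood at -0.85 relative to replicate 1, further than siLSD1 was from either.

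ELOVL6, which extends palmitate to stearate, showed the opposite pattern. Its log2 signals were 8.52 and 9.13 in the siControl replicates and 8.99 and 8.95 in siLSD1. The differences were 0.45 against replicate 1 and -0.16 against replicate 2. SCD, the desaturase that makes oleate and palmitoleate, was bright on every array, from 28219.7 to 35533.0 in normalized linear signal in siControl and from 32309.3 to 41664.9 in siLSD1. These ranges overlapped, and the log2 difference was 0.18 ± 0.18, at 0.30 and 0.07 over siControl replicates 1 and 2.

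GPAM, the mitochondrial acyltransferase of the first step of glycerolipid synthesis, was higher in siLSD1 against both controls. The non-normalized signals were 393.7, 327.5, 344.0 and 287.4 on siControl arrays 1 to 4 and 575.8, 543.0, 518.4 and 517.7 on siLSD1 arrays 1 to 4. The lowest siLSD1 array was above the highest siControl array, and the ratio of the means was 1.70 after normalization. After neqc the log2 difference was 0.11 in place of 0.76, and GPAM was no longer beyond 1.5-fold. It exceeded siControl replicate 1 by 0.62 and replicate 2 by 0.91 on the log2 scale, while the siLSD1 replicates differed by 0.02. The most similar rows outside the pathway were BID, a pro-apoptotic BCL2 family member, at a distance of 0.06, and DAB2, an endocytic adaptor, and EXOSC5, an exosome subunit, both at 0.09.

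SREBF1, the regulator of the set, had a small difference. Its log2 signal was 9.94 in both siControl replicates and 10.22 and 10.23 in siLSD1. The difference was 0.29 against each siControl replicate, but the arrays of 1 sample differed by up to 0.21 from each other. The table has 1 row for the symbol, so the SREBP-1a and SREBP-1c transcripts could not be told apart.

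The size of these differences depended on the background correction, most of all for the dimmer rows. SLC13A5 stood at 2.36 with an offset of 16 in place of 50, at 1.57 in the authors' normalized values and at 0.18 after neqc, each with siControl replicate 1 included. GPAM stood at 0.84, 0.70 and 0.11 in the same order, and ACACB at -1.33, -1.29 and -0.80. Neqc infers its negative controls from the detection p-values, which did not follow the signals here: of 12255 rows that exceeded every ERCC row throughout, 761 were not detected on any array. The direction was kept by each of the 10 genes under each of these settings and under median scaling and no background correction.

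**Figure D3:**
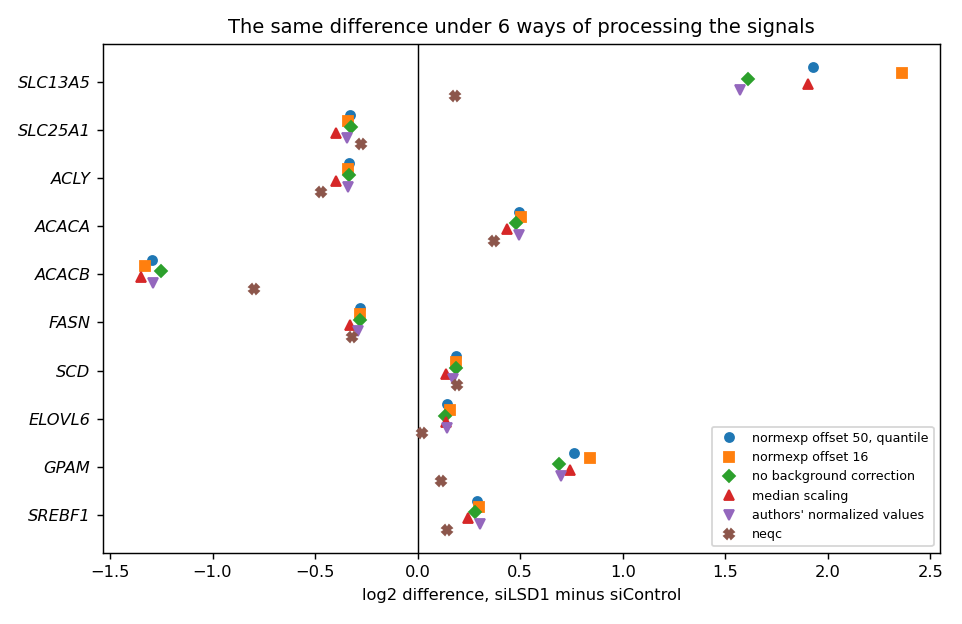
Log2 difference of siLSD1 from siControl for the 10 genes (rows) under 6 ways of processing the signals (symbols). The SLC13A5 values run from 0.18 after neqc to 2.36 with an offset of 16, while those of ACLY, SLC25A1, FASN and SCD stay close together.

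Promoter sequences of SLC13A5 and ACACB are shown because these were the 2 members called with the technical arrays modelled, 1 higher and 1 lower in siLSD1. They are RefSeq sequences of GRCh38.p14, 250 bases before to 50 after an annotated start, 5′ to 3′ on the strand of the gene, and capitals mark CCAAT boxes on either strand (ATTGG when on the opposite strand). SLC13A5 lies on chromosome 17 (chr17:6713320-6713619, minus strand). ACACB lies on chromosome 12 and has 2 annotated starts in the table, the upstream one at chr12:109116337-109116636 and the downstream one at chr12:109154429-109154728, both on the plus strand. The array row does not tell transcripts from these starts apart.
SLC13A5: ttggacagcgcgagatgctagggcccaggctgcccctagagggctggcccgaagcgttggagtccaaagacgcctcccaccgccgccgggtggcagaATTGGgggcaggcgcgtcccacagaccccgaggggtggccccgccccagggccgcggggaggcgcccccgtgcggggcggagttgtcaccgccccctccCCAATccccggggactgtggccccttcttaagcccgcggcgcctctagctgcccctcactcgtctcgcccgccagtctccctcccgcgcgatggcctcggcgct
ACACB upstream start: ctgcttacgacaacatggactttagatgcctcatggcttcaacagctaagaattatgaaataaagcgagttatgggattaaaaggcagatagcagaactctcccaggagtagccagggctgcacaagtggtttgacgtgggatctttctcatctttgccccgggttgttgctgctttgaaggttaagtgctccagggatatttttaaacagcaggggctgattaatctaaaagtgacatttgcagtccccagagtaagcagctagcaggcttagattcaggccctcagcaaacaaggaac
ACACB downstream start: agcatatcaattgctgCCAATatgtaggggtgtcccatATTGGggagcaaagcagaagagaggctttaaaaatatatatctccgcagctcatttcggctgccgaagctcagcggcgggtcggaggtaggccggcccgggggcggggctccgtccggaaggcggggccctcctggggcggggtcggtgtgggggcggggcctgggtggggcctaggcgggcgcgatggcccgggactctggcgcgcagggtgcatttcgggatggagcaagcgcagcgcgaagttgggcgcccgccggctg

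The SLC13A5 window held a CCAAT box at -54 and one on the opposite strand at -153, positions counted from the start site to the first base of the match. The upstream ACACB window held 0 CCAAT boxes, and the downstream one held boxes at -234 and, on the opposite strand, -212. Promoters were found for 9 of the 10 genes, all but FASN, 13 windows in all, of which both ACLY windows overlap. The motif counts therefore do not cover FASN, and for SREBF1 they cover 1 annotated start. A CCAAT box, bound by NF-Y, which acts beside SREBP at many lipid genes, was present in 9 of the 13 windows, against 34.6% of 35116 promoters in the table. The GC box GGGCGG, the core of Sp1 sites, was in 11 of 13 windows, against 45% of all promoters. The sterol element TCACNCCAC and the E-box CACGTG were in 0 of 13, against 1.13% and 7.26% of all promoters. Each was searched in this 1 form only. At shares this low, 0 of 13 windows is not read as a lack of such elements. The hypoxia core was searched only as ACGTG, whose letters are also part of the E-box, so its other forms were not counted. ACGTG was in 3 of 13, 1 window each of ACACA, ACACB and ELOVL6, against 21.4%. All motifs were searched on both strands, and a match is a description of the letters, not a binding site. As to position in the genome, 5 of the 10 genes (SLC13A5, ACLY, ACACA, FASN and SREBF1) lie on chromosome 17, which holds 5.83% of protein-coding genes.

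Genes that feed cytosolic acetyl-CoA and NADPH mostly had lower estimates. Of 22 listed, 18 were tested, 15 with lower and 3 with higher estimates, with a median of -0.18 against 0.01 over all 12870 rows, and 0 passed limma's test. The lowest were SLC25A10, the mitochondrial dicarboxylate carrier, at -0.70 ± 0.18, and SLC25A11, the oxoglutarate carrier, at -0.64 ± 0.19. Both were lower in both siLSD1 samples than in both siControl samples, as SLC25A1 was. Of the 18 tested, 6 were lower and 0 higher without overlap, against 2698 and 2906 of all 12870 rows. The highest were the dehydrogenases IDH2 at 0.08 ± 0.21 and MDH2 at 0.06 ± 0.16, each with groups that overlapped and a direction that depended on the siControl replicate (0.32 and -0.16 for IDH2, -0.06 and 0.19 for MDH2). The list and the others below were written with earlier results of these data known.

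Enzymes that lengthen and desaturate fatty acids (16 listed, 12 tested, 6 higher and 6 lower, median 0.00, 0 passing) did not share a direction. ELOVL2, which elongates polyunsaturated fatty acids, stood at 0.84 ± 0.26, from 9.43 and 10.15 in siControl to 10.65 and 10.61 in siLSD1. The dehydratase HACD3 stood at 0.42 ± 0.15, FADS3 at -0.48 ± 0.19 and ELOVL7 at -0.33 ± 0.24, at -0.65 against siControl replicate 1 and -0.02 against replicate 2. ELOVL2 thus lay above both siControl samples where its relative ELOVL6 did not. Of the 12 tested, 2 were higher and 5 lower without overlap, against 2906 and 2698 of all 12870 rows.

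Among acyl-CoA synthetases and fatty acid transport proteins (10 listed, 6 tested, 4 higher and 2 lower, median 0.19, 0 passing), SLC27A3 stood at -1.08 ± 0.30 and SLC27A5, the liver bile acyl-CoA synthetase, at -0.28 ± 0.18. The long-chain synthetases ACSL3 and ACSL1 stood at 0.52 ± 0.23 and 0.27 ± 0.15. Against siControl replicates 1 and 2, SLC27A3 was at -0.69 and -1.48 and ACSL3 at 0.25 and 0.79. SLC27A3 was the 1 gene of this list called with the technical replicates modelled (limma, adjusted p = 0.0461), where 2.91% of all 12870 rows were called. With the technical arrays averaged its adjusted p in limma was 0.327. ACSL4, which prefers arachidonic acid, was singled out after its values were seen, since it failed the detection filter on every array. Its log2 signals were 9.17 and 9.64 in siControl and 10.81 and 10.75 in siLSD1, a difference of 1.37 ± 0.18 in the fit with no filter (adjusted p = 0.154).

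Downstream of GPAM, glycerolipid assembly genes (18 listed, 7 tested, 5 higher and 2 lower, median 0.04, 0 passing) held the phosphatidate phosphatase LPIN1 at 0.44 ± 0.15 and the triglyceride synthase DGAT2 at 0.21 ± 0.21, against MOGAT3 at -0.65 ± 0.19 and DGAT1 at -0.38 ± 0.29. DGAT1 was at -0.74 against siControl replicate 1 and at -0.02 against replicate 2. LPIN1 was higher and MOGAT3 lower in both siLSD1 samples than in both siControl samples. Of the 7 tested, 2 were higher and 1 lower without overlap, against 2906 and 2698 of all 12870 rows. The other glycerol 3-phosphate acyltransferases, GPAT2 and GPAT4, did not pass the detection filter, and GPAT3 was not matched to a row.

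Regulators of lipogenesis (20 listed, 16 tested, 9 higher and 7 lower, median 0.02, 0 passing) were led by INSIG1, the sterol-responsive protein that holds SREBP precursors in the endoplasmic reticulum, at 0.63 ± 0.18, and by MID1IP1, which promotes polymerization of acetyl-CoA carboxylase, at 0.37 ± 0.16. SCAP, the escort of SREBP precursors, stood at -0.45 ± 0.17 and the liver X receptor NR1H2 at -0.24 ± 0.24. NR1H2 had opposite directions against the siControl replicates, -0.54 and 0.06. INSIG1, MID1IP1 and SCAP had groups that did not overlap. Of the 16 tested, 3 were higher and 3 lower without overlap, against 2906 and 2698 of all 12870 rows. The AMPK and malonyl-CoA list (13 listed, 9 tested, 6 higher and 3 lower, median 0.06, 0 passing) held malonyl-CoA decarboxylase, MLYCD, at 0.46 ± 0.27 and the AMPK subunit PRKAA1 at 0.39 ± 0.20, with CPT1A, the enzyme that malonyl-CoA inhibits, at -0.52 ± 0.20 and PRKAG1 at -0.24 ± 0.24. PRKAG1 turned direction between the siControl replicates, from -0.55 to 0.06. The estimates for MLYCD were 0.84 and 0.08 against siControl replicates 1 and 2, those for PRKAA1 0.60 and 0.17, and those for CPT1A -0.74 and -0.30. CPT1A was lower in both siLSD1 samples than in both siControl samples, as ACACB was. In this list 2 of the 9 tested were higher and 1 lower without overlap, against the same 2906 and 2698 rows.

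**Figure D4:**
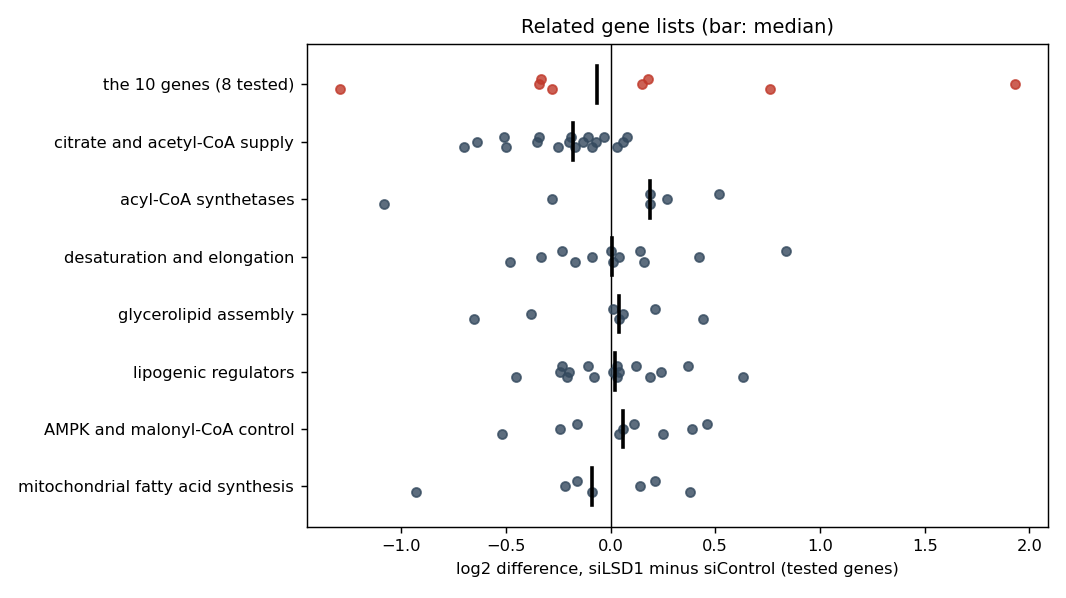
Log2 difference of siLSD1 from siControl for the tested genes of each related list (points; small vertical offsets only separate them) with the list's median (bar). The members run from -1.29 for ACACB to 1.93 for SLC13A5, whose value includes a siControl sample without detection, and 15 of the 18 citrate and acetyl-CoA supply genes lie below 0.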

How the data were processed

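Total RNA of 8 samples was measured on Illumina bead arrays. The authors deposited linear, non-normalized bead intensity with its detection p-value for each row and array (34694 rows named by gene symbol), and a second table of intensity normalized between arrays (34687 rows). BeadStudio 3.1.1.0 was used, per the submitters' processing notes; the summary of probes to symbols and the normalization are not given in the sources used here. Signals were background-corrected with normexp (offset 50), quantile-normalized and put on a log2 scale; the offset understates folds of dim rows. Rows detected (p under 0.01) on 4 or more arrays, without 92 ERCC rows, were tested (12870). Technical arrays were averaged and groups compared, 2 against 2, with limma 3.58.1 in R 4.3.3 (lmFit, eBayes, two-sided, Benjamini-Hochberg, threshold 0.05), and the fit was tested on simulated data whose spread was smaller than that of the siControl pair. Symbols follow RefSeq GRCh38.p14 (17762 current, 2735 through an older symbol; KDM1A is AOF2 in the tables). Named genes were KDM1A, the 10 members, the 2 highest and 2 lowest tested genes of each related list and of the hepatocyte markers (with ALB, HNF4A, APOA1 and APOB added after their values were seen), and the 3 rows most like SLC13A5, ACACB and GPAM. The members and lists were chosen with earlier results of these data known. The number of arrays limits the precision. Alternatives covered background correction, normalization, filters, technical replicates, a replicate block and leaving out replicates. Protein sequences were not used here.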

Additional observations from a re-analysis of the deposited data

How the results depend on the processing

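With 2 biological samples a group and siControl samples that differ widely, sizes are uncertain, and signal near background limits SLC13A5. The count of genes called stayed at 0 except with the technical replicates modelled (375) and when 1 siControl replicate was left out; over all samples and arrays left out in turn it ran from 0 to 5006, and the high counts, 2180 without siControl replicate 1 and 5006 without replicate 2, come from fits whose spread is that of the siLSD1 pair alone. In those 2 fits the log2 difference of each member is the one from the remaining siControl replicate alone. No call of a member is read from them. Members beyond 1.5-fold numbered 1 after neqc, ACACB, and 3 or 4 in the other settings. The number of members not overlapping was 7 except when a sample was left out, which eases separation for every row: 9 and 10 without siControl replicate 1 or 2, where 79% and 84.3% of 16049 rows did not overlap, and 7 and 8 without siLSD1 replicate 1 or 2, where 59.6% and 62.4% did not. Leaving out siControl replicate 1 reversed FASN and ELOVL6: with each sample or array left out in turn FASN ran from -0.70 to 0.14 and ELOVL6 from -0.16 to 0.45. The cause was not tested. The replicate number as a replicate block left the log2 differences as they were, called 0 genes, and gave SLC13A5 and ACACB an adjusted p of 0.119 and 0.125; the labels tie replicate numbers to no shared batch, and the deviations of same-numbered samples correlated at r = 0.115 across genes.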

Other observations

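Mitochondrial fatty acid synthesis, a separate pathway that supplies octanoate for lipoic acid, had 7 tested genes of 10 listed, 3 with higher and 4 with lower estimates and a median log2 difference of -0.09; limma called 0 of them, and 1515 of all 12870 rows had an unadjusted p under 0.05. HSD17B8, a subunit of the mitochondrial ketoacyl reductase, stood at -0.93 ± 0.18, from 9.58 and 9.78 in siControl to 8.91 and 8.59 in siLSD1. With the technical arrays averaged its adjusted p in limma was 0.243. With the technical replicates modelled it was called (limma, adjusted p = 0.0125), as were 2.91% of all 12870 rows. Its partner subunit CBR4 stood at 0.38 ± 0.26, with groups that overlapped. The malonyl transferase MCAT stood at -0.22 ± 0.25 and the lipoyl synthase LIAS at 0.21 ± 0.31, both with opposite directions against siControl replicates 1 and 2 (-0.55 and 0.10 for MCAT, 0.65 and -0.24 for LIAS). CBR4 was at 0.71 and 0.05 against them.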
